A study of Mus musculus with 6 samples.

Results

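The nuclear receptors of a mouse macrophage line are described here, chosen as the genes whose annotated mouse symbol belongs to the NR0 to NR6 subfamilies or names a retinoic acid, retinoid X, peroxisome proliferator-activated, thyroid hormone, ROR, estrogen, estrogen-related or vitamin D receptor. The rule found 43 probe sets of 40 genes among the 19505 named genes of the array, and the probe set with the highest mean was kept for each gene (Rora had 3 probe sets and Rorb had 2). The rule selects genes by symbol and uses no difference between groups. Esrra, Nr1h2, Nr2e3 and Ppard also have symbols of this form but were not analysed here, and the rule does not cover receptors with other symbols, such as Pgr and Hnf4a.

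Nuclear receptors are transcription factors that bind DNA and are switched, in many cases, by small lipophilic ligands such as steroids, retinoids, oxysterols, fatty acids and heme. Without ligand many of them hold co-repressor complexes at their target genes, and with ligand they recruit co-activators. In macrophages they are known for restraining inflammatory transcription, for the handling of cholesterol and fatty acids and, through the REV-ERB receptors, for a link to the circadian clock.

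RNA came from RAW-D cells, a subclone of the mouse macrophage line RAW264.7 that readily forms osteoclasts, and was measured on 6 mouse Clariom S arrays, 1 per culture. Lpin2 KO clones #1 and #2 with LPS, WT cells with LPS, the same KO clones untreated and untreated WT cells were compared, and the treated cultures received 200 ng/mL LPS, a bacterial outer membrane lipid sensed by TLR4, for 4 h. The knockout was made with CRISPR/Cas9 and repair plasmids under puromycin, and each KO number is 1 isolated clone, so clonal differences and the loss of lipin2, a phosphatidate phosphatase, cannot be told apart. No source used here says that the WT cells were cloned or selected in the same way.

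Levels are log2 signals after RMA, and background was set on each array at the level under which 95% of its negative control probes lay (9.12 to 9.45, called the limit). Differences were tested with limma over all 19505 genes, two-sided, with an adjusted p under 0.05 as the threshold. WT cells had 1 array per treatment, so the spread came from the 2 clones alone, and an exact permutation test of 1 array against 2 could not give a p under 0.333. Precision is limited by this number of arrays. A fold against a group below background is given as a lower bound with the limit in place of its signal, while the p beside it tests the signals as measured.

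Several facts of the arrays touch all results. Lpin2 itself was below background on all 6 arrays, so its signal cannot check the genotypes. With LPS it had 7.52 and 7.98 in KO clones #1 and #2, against 6.84 in WT cells. Untreated, it had 7.97 and 8.42 in clones #1 and #2, against 7.21 in WT cells. The measured signal was thus not lower in the KO clones. Of 7 measured macrophage markers 6 were above background on at least 1 array (Adgre1, Csf1r, Lyz2, Itgam and Cd14 on all 6), as were 3 of 6 osteoclast genes, Ctsk, Acp5 and Dcstamp. None of the measured markers of T cells, B cells, fibroblasts, epithelium, adipocytes, hepatocytes or neutrophils was. The WT array with LPS stood close to the untreated WT array, with 144 genes over 2-fold (0.738%), against 2337 genes (12.0%) between KO cells with and without LPS. The untreated WT array also had high signals of LPS-inducible genes, which were chosen here after their values were seen. Tnf, a proinflammatory cytokine, had 17.56 and 17.44 in KO clones #1 and #2 with LPS, 16.41 in WT cells with LPS, 14.07 and 14.05 in the untreated clones and 16.18 in untreated WT cells. Ptgs2, which makes prostaglandins, had 17.33 and 17.21 in the KO clones with LPS, 14.83 in WT cells with LPS, 11.24 and 11.88 in the untreated clones and 14.21 in untreated WT cells. Untreated KO cells were therefore lower than untreated WT cells by limma for both (log2 difference -2.12, adjusted p = 0.00544 for Tnf and -2.64, adjusted p = 0.0112 for Ptgs2), and the part of this difference in the receptor results was not tested. Untreated, KO minus WT was also -1.22 for Nfkbia, -3.56 for Il1b, -5.12 for Cxcl2, -4.15 for Ccl4 and -2.40 for Nos2. Nos2 was below background in untreated WT cells, at 7.62. Between the WT arrays, LPS minus untreated was 0.23 for Tnf, 0.62 for Ptgs2 and 0.34 for Nfkbia. It was 1.36 for Il1b, 2.48 for Cxcl2, 1.17 for Ccl4 and 1.03 for Nos2. The labels do not settle whether the culture labelled untreated WT was free of stimulation, so each WT value below is that of the library with that label.

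Most nuclear receptors were below background. Of the 40 receptors, 9 (22.5%) were above it on at least 1 array, against 34.4% of all genes, and 4 were above it on all 6 arrays, namely Nr1d2, Nr4a2, Rara and Rarg. The other 5 were Nr1d1, Nr2c1, Nr2c2, Nr3c1 and Rxrb. Between 6 and 8 receptors were above background on each array. Signals of 31 receptors never exceeded the limit. Just inside it lay Nr3c1, above it by 0.06 and 0.02 in KO clones #1 and #2 with LPS and on no other array, then Nr2c1, at most 0.23 above it, and Rxrb, at most 0.26 above it. Just outside lay Thra, which stayed 0.25 under it on its nearest array, followed by Nr4a1 at 1.08 under it.

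**Figure D1:**
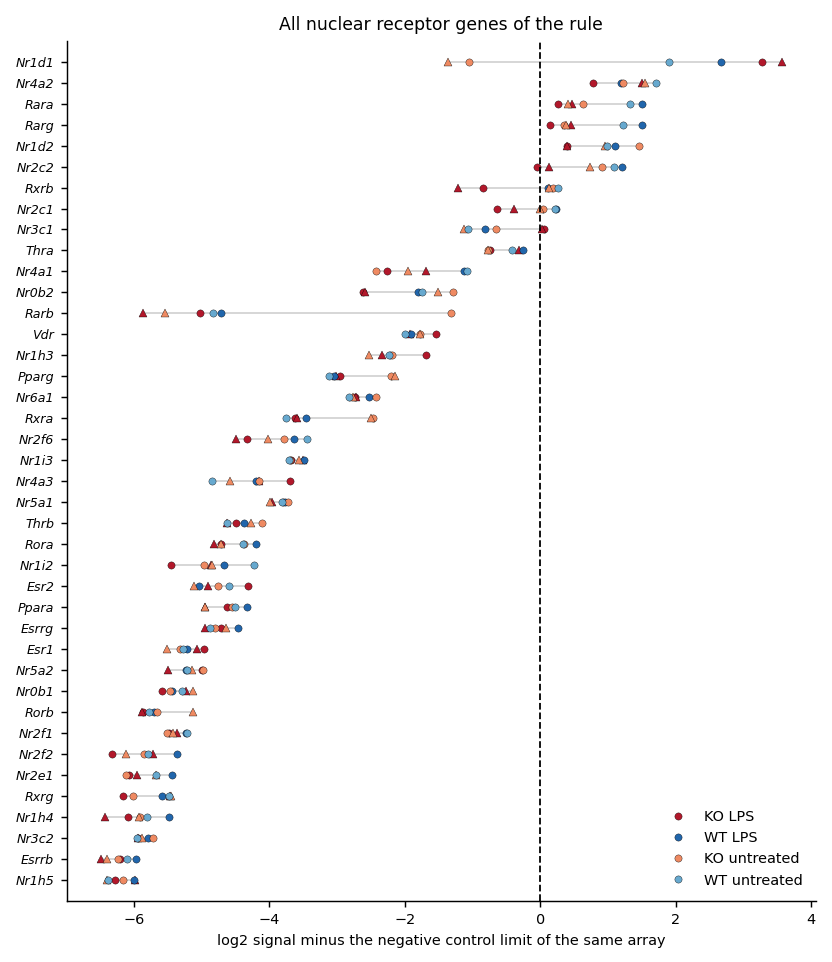
Log2 signal minus the negative control limit of the same array for all 40 receptors, 1 row per gene and 1 point per array (circles, clone #1 or WT; triangles, clone #2; dashed line, the limit). Only 9 receptors reach the right of the line on any array. Nr1d1, Nr2c1, Nr2c2, Nr3c1 and Rxrb lie on both sides of it, and Nr1d1 runs from -1.36 to 3.56.

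Of the REV-ERB receptors, Nr1d1 differed in 4 of the 5 comparisons and Nr1d2 in 1. REV-ERBα and REV-ERBβ, the products of Nr1d1 and Nr1d2, are heme-binding repressors that act through the NCoR and HDAC3 complex, silence the clock activator Arntl and restrain inflammatory genes of macrophages. The Nr1d1 signal was high in all cells with LPS and in untreated WT cells and was below background only in untreated KO cells. The promoters of both genes are shown because they carry receptor half-sites of different form, from 250 bases before to 50 bases after the gene start in RefSeq (GRCm38.p6). The Nr1d1 window is chr11:98775328-98775627 and the Nr1d2 window is chr14:18239057-18239356, both on the minus strand, and each is written 5′ to 3′. Capitals mark the match to GTCA and GGGNCA set 2 bases apart in Nr1d1 and to AGGTCA in Nr1d2.
Nr1d1: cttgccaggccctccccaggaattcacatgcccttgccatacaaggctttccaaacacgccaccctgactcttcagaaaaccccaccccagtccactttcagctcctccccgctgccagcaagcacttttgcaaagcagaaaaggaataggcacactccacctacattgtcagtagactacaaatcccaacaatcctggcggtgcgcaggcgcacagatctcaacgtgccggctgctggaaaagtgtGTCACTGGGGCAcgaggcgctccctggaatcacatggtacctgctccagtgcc
Nr1d2: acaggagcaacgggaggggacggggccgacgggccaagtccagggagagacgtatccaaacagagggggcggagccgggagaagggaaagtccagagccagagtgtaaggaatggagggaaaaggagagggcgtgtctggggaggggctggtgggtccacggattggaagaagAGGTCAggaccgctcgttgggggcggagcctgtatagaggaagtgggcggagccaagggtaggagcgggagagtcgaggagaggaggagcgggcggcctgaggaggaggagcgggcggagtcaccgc

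The spaced pattern of the Nr1d1 window, a form of the paired half-site through which human REV-ERBα is known to bind its own gene, was written with this promoter known. On either strand it occurred in 96 of 32851 promoters of the same length (0.292%), and in 1 of the 37 receptors with a promoter in the table. The half-site AGGTCA of the Nr1d2 window occurred in 16.3% of promoters and in 11 of the 37 receptors. Neither window held the E-box CACGTG, the cyclic AMP half-site TGACG or a κB motif, which occurred in 7.15%, 20.8% and 8.46% of promoters. A match is a description of letters and not of binding. Because each array measures a whole culture, a smaller share of cells that express a gene and less RNA of it per cell cannot be told apart.

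Nr1d1 had log2 signals of 12.72 and 13.00 in KO clones #1 and #2 with LPS, against 11.78 in WT cells with LPS. Without LPS it had 8.28 and 8.09 in clones #1 and #2, both below background, against 11.11 in WT cells. The KO clones were thus above the WT array with LPS and below it without, and the clones lay within 0.28 of each other in both treatments.

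With LPS, the Nr1d1 difference of KO from WT was 1.08 (standard error 0.22, limma adjusted p = 0.0316), and without LPS it was -2.92 (standard error 0.22, adjusted p = 0.00345), at least 3.28-fold lower in KO. In KO cells the LPS difference of Nr1d1 was 4.67 (standard error 0.18, adjusted p = 0.000156), at least 11.0-fold, with 4.44 in clone #1 and 4.90 in clone #2. In WT cells the LPS difference was 0.67 (standard error 0.25, 95% interval 0.05 to 1.29, unadjusted p = 0.0385, adjusted p = 1.00). The 2 responses differed by 4.00 (standard error 0.31, adjusted p = 0.00745), or by at least 2.79 with untreated KO cells set at the limit. The difference with LPS did not pass without KO clone #2 with LPS (adjusted p = 0.0619) or without either untreated KO array (0.0683 for each), which enter that comparison only through the spread. Tnf and Ptgs2 had the same order of the 4 group means as Nr1d1, and their part in these values was not tested.

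Thra, which encodes thyroid hormone receptor α, lies on the opposite strand and shares 1075 bases with Nr1d1 at their 3′ ends (chromosome 11, Thra 98740776 to 98769006 and Nr1d1 98767932 to 98775377, GRCm38.p6). Its group means had the same order as those of Nr1d1 but ran only from 8.62 in untreated KO cells to 8.91 in KO cells with LPS. No Thra difference passed the test, and at signals below background it cannot be told whether Thra followed Nr1d1. Thra had 8.70 and 9.13 in KO clones #1 and #2 with LPS, 8.87 in WT cells with LPS, 8.57 and 8.68 in the untreated clones and 8.79 in untreated WT cells, and all 6 lay below background.

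Nr1d2 moved less than Nr1d1 and in the other direction. It had 9.83 in both KO clones with LPS, 10.21 in WT cells with LPS, 10.80 and 10.41 in the untreated clones and 10.20 in untreated WT cells. LPS lowered it in KO cells, by a log2 difference of -0.77 (standard error 0.19, limma adjusted p = 0.0426), a call that was lost when any KO array was left out (adjusted p from 0.0669 to 0.190). The response difference was -0.79 (95% interval -1.58 to 0.01, adjusted p = 0.306).

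**Figure D2:**
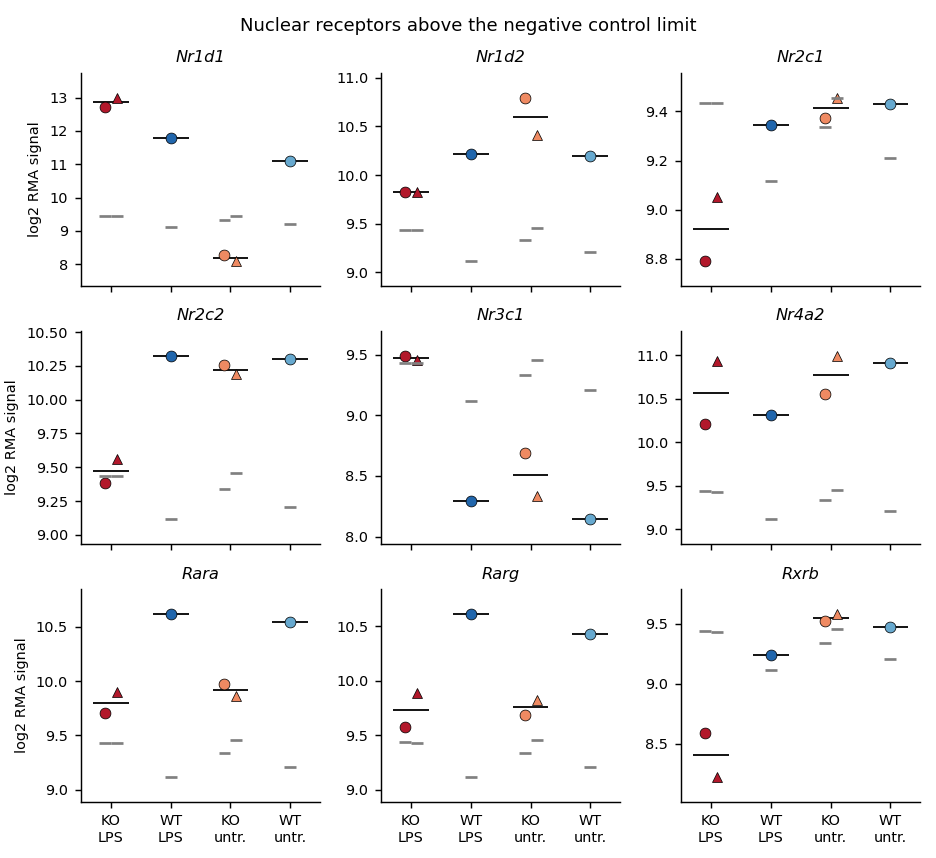
Log2 RMA signal of the 9 receptors above background, with KO left of WT in each treatment (circles, clone #1 or WT; triangles, clone #2; black lines, group means; grey ticks, the negative control limit of each array; the vertical axes differ and do not start at 0). Nr1d1 falls under its limit only in untreated KO cells, at 8.28 and 8.09.

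The glucocorticoid receptor gene Nr3c1, whose product is held by HSP90 chaperones until cortisol or corticosterone binds and then represses inflammatory genes, was higher in KO cells with LPS. It had 9.49 and 9.46 in KO clones #1 and #2 with LPS, against 8.30 in WT cells with LPS, while without LPS it had 8.69 and 8.33 in the clones, against 8.14 in untreated WT cells. Only the 2 KO arrays with LPS lay above background. The difference of KO from WT with LPS was 1.18 (standard error 0.22, limma adjusted p = 0.0252), at least 1.28-fold, and it did not pass without KO clone #1 with LPS (adjusted p = 0.0559). LPS raised it in KO by 0.96 (standard error 0.18, adjusted p = 0.0187), at least 1.06-fold, which did not pass without untreated clone #2 (0.105) or without clone #1 with LPS (0.0572).

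The retinoid receptors differed among themselves. Rara and Rarg encode receptors of retinoic acid, which bind DNA with a retinoid X receptor as partner, and both had lower values on every KO array than on either WT array. Rara had 9.70 and 9.90 in KO clones #1 and #2 with LPS, against 10.62 in WT cells with LPS, while without LPS it had 9.97 and 9.86 in the clones, against 10.54 in untreated WT cells. Rarg had 9.58 and 9.88 in the KO clones with LPS, against 10.61 in WT cells with LPS, while without LPS it had 9.69 and 9.83 in the clones, against 10.43 in untreated WT cells. The KO and WT values did not overlap, but no difference passed the test. The share of all genes with KO and WT values that do not overlap was not counted, so this separation cannot be called particular to Rara and Rarg.

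With LPS the differences were -0.82 for Rara (standard error 0.20, limma adjusted p = 0.0558) and -0.88 for Rarg (standard error 0.22, adjusted p = 0.0590), and untreated they were -0.62 (adjusted p = 0.162) and -0.67 (adjusted p = 0.168). Rarg with LPS passed with the clone as a block (adjusted p = 0.0414), which takes the difference between clones out of the error, and without KO clone #2 with LPS (0.0426). Both passed when only genes above background were fitted (0.0259 for Rara and 0.0310 for Rarg).

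Rxrb, a retinoid X receptor and so a partner of many of the others, was reduced by LPS in KO cells. It had 8.58 and 8.22 in KO clones #1 and #2 with LPS, 9.24 in WT cells with LPS, 9.52 and 9.58 in the untreated clones and 9.47 in untreated WT cells. LPS lowered it in KO cells by a log2 difference of -1.15 (standard error 0.18, limma adjusted p = 0.0109), at least 1.08-fold, and the call was lost without untreated clone #1 (0.0652) or #2 (0.0757). KO differed from WT with LPS by -0.83 (adjusted p = 0.0756), which passed when only genes above background were fitted (0.0404).

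Its paralog Rxra was below background on all 6 arrays, so no fold is given for it. Rxra had 5.81 and 5.84 in the KO clones with LPS, 5.65 in WT cells with LPS, 6.87 and 6.95 in the untreated clones and 5.46 in untreated WT cells, so the untreated KO clones stood above the rest. The measured signals differed between KO and WT untreated (1.45, standard error 0.18, limma adjusted p = 0.0172, and 0.0834 and 0.102 without untreated clone #1 or #2) and between LPS and untreated in KO (-1.08, standard error 0.15, adjusted p = 0.00666, and 0.0563 without untreated clone #2).

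Rarb was high on 1 array only, untreated KO clone #1, at 8.02, against 3.91 in untreated clone #2 and between 3.56 and 4.41 on the other arrays, all below background. The gap of 4.12 between the untreated clones was the widest of any receptor. The median gap between clones over the 40 receptors was 0.27 with LPS and 0.18 untreated, against 0.20 and 0.18 over all genes.

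Nr2c2 and Nr2c1 encode the testicular receptors TR4 and TR2, orphan receptors that pair with each other on DNA. Nr2c2 had 9.39 and 9.56 in KO clones #1 and #2 with LPS, 10.32 in WT cells with LPS, 10.25 and 10.19 in the untreated clones and 10.30 in untreated WT cells. The 2 KO arrays with LPS thus stood apart from the other 4, and clone #1 with LPS was below background. KO cells were lower than WT cells with LPS by a log2 difference of -0.85 (standard error 0.19, limma adjusted p = 0.0457, from 0.0539 to 0.121 with 1 KO array left out). LPS lowered it in KO, with a log2 difference of -0.75 (standard error 0.16, adjusted p = 0.0275), which did not pass without untreated clone #1 (0.140), untreated clone #2 (0.122) or clone #1 with LPS (0.103). Nr2c1 had 8.79 and 9.05 in the KO clones with LPS, 9.35 in WT cells with LPS, 9.37 and 9.46 in the untreated clones and 9.43 in untreated WT cells. Its differences were -0.42 for KO against WT with LPS (adjusted p = 0.286) and -0.49 for LPS in KO (adjusted p = 0.117).

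Nr4a2 (NURR1), an immediate-early gene of the NR4A family whose members are regarded as orphan receptors, was above background on every array. It had 10.21 and 10.94 in KO clones #1 and #2 with LPS, 10.31 in WT cells with LPS, 10.56 and 10.99 in the untreated clones and 10.92 in untreated WT cells. Clone #2 was higher than clone #1 in both treatments, and the groups overlapped. KO differed from WT with LPS by 0.26 (95% interval -0.62 to 1.14, limma adjusted p = 0.740) and LPS from untreated in KO by -0.20 (95% interval -0.92 to 0.51, adjusted p = 0.738). Nr4a1 (NUR77) ran from 6.90 to 8.13 and Nr4a3 (NOR1) from 4.36 to 5.73, both below background. The promoters of all 3 family members held the cyclic AMP half-site TGACG, as did 20.8% of all promoters and 13 of the 37 receptors.

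Pparg, Nr0b2, Nr1h3, Vdr and Ppara were below background on all 6 arrays. Pparg, the fatty acid receptor of adipocytes and macrophages, had 6.48 and 6.42 in KO clones #1 and #2 with LPS, 6.07 in WT cells with LPS, 7.13 and 7.31 in the untreated clones and 6.09 in untreated WT cells. The untreated KO clones stood above the other arrays (KO against WT untreated 1.12, standard error 0.19, limma adjusted p = 0.0394, and 0.119 and 0.185 without untreated clone #1 or #2). Its signals were lower with LPS in KO (-0.77, standard error 0.16, adjusted p = 0.0249, from 0.0681 to 0.148 with 1 KO array left out). Nr0b2 (SHP), a repressor without a DNA-binding domain known from the liver, had 6.81 and 6.84 in the KO clones with LPS, 7.31 in WT cells with LPS, 8.05 and 7.95 in the untreated clones and 7.46 in untreated WT cells (LPS in KO -1.17, standard error 0.15, adjusted p = 0.00519). Signals of Nr1h3, the oxysterol receptor LXRα, ran from 6.90 to 7.74, those of the vitamin D receptor gene Vdr from 7.21 to 7.89 and those of Ppara from 4.48 to 4.81.

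Signals of the remaining receptors below background ran from 2.83 for Nr1h5 to 6.90 for Nr6a1, and none of them passed a test. They were Nr6a1, Nr2f6, Nr1i3, Nr5a1, Thrb, Rora, Nr1i2, Esr2, Esrrg, Esr1, Nr5a2, Nr0b1, Rorb, Nr2f1, Nr2f2, Nr2e1, Rxrg, Nr1h4, Nr3c2, Esrrb and Nr1h5. Among them are the estrogen receptors, the mineralocorticoid receptor (Nr3c2) and the bile acid receptor FXR (Nr1h4).

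Counted over all 40 receptors, between 0 and 8 passed in each comparison. For KO against WT with LPS, 2 were higher and 1 lower, against 4.62% and 6.66% of all genes (11.3% either way), and the median log2 difference was 0.10, against -0.00 over all genes. For KO against WT untreated, 2 were higher and 1 lower, against 2.16% and 2.14% (4.31% either way), with a median of 0.07 against 0.03. For LPS in KO, 2 were higher and 6 lower, against 6.84% and 9.8% (16.6% either way), with a median of -0.07 against -0.03. For LPS in WT, 0 receptors and 0.0% of genes passed by limma (1 receptor and 658 genes at an unadjusted p under 0.05), and 0 receptors were over 2-fold (0.738% of genes). Over 2-fold without a test were 5 receptors for LPS in KO, against 12.0% of genes, and 4 for the difference between the responses, against 12.5%. The responses differed for 1 receptor, Nr1d1, which was higher, against 1.43% of genes higher and 1.86% lower (3.29% either way). The receptors that passed in any comparison were the 8 that passed for LPS in KO, where 16.6% of all genes passed. Of these, Nr0b2, Pparg and Rxra were below background throughout. The share of all genes that passed in any comparison was not counted.

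**Figure D3:**
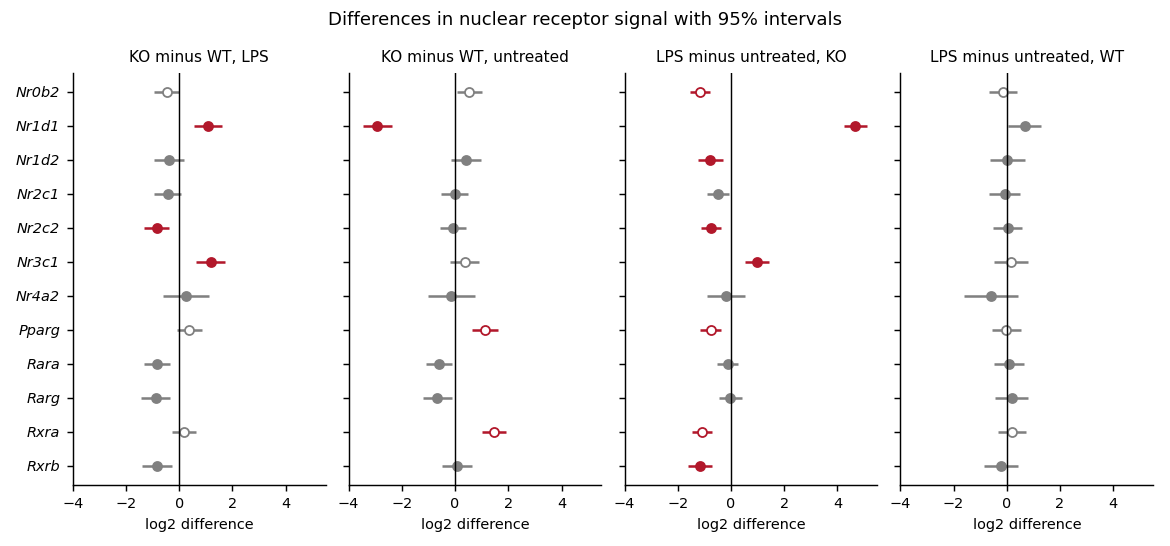
Log2 differences with 95% intervals from limma for the 12 receptors that were above background or passed a test, in 4 comparisons (red, adjusted p under 0.05; open circles, both groups below background). Nr1d1 stands apart, at -2.92 for KO minus WT untreated and 4.67 for LPS minus untreated in KO.

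Genes around the receptors were taken from 8 lists. Of 15 clock genes measured, 4 were above background on some array. With LPS, KO cells were higher than WT cells in Per1, Cry2, Nfil3 and Bhlhe41 and lower in Dbp, against 11.3% of all genes either way, and all 5 were below background in both of those groups. Arntl (BMAL1), a gene that REV-ERBs are known to repress, had 9.76 and 9.65 in KO clones #1 and #2 with LPS, against 8.60 in WT cells with LPS, while without LPS it had 9.80 and 10.47 in the clones, against 8.54 in untreated WT cells. Every KO value lay above background and every WT value below it. The difference of KO from WT was 1.11 with LPS (standard error 0.30, limma adjusted p = 0.0788) and 1.60 untreated (standard error 0.30, adjusted p = 0.0496, at least 1.90-fold, and 0.0540 and 0.138 without untreated clone #1 or #2).

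Dbp, a clock output factor, had 7.30 and 6.94 in the KO clones with LPS, 8.95 in WT cells with LPS, 10.14 and 9.54 in the untreated clones and 8.83 in untreated WT cells. Only the untreated KO clones were above background. LPS lowered it in KO cells by -2.72 on the log2 scale (standard error 0.25, limma adjusted p = 0.00161), at least 1.32-fold, and the responses differed by -2.84 (adjusted p = 0.0328, and 0.0794 and 0.0525 without untreated clone #1 or #2). With the groups below background set at the limit, the difference between the Dbp responses was -0.41. Clock and Bhlhe40 differed between KO and WT with LPS by -0.25 (adjusted p = 0.571) and 0.18 (adjusted p = 0.844).

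Of 15 genes that glucocorticoids are known to induce, 8 were above background. With LPS, KO cells were higher than WT cells in Per1, Dusp1, Zfp36, Anxa1, Cebpd and Lcn2 and lower in Fkbp5, and LPS in KO raised 6 and lowered 2 of them (Fkbp5 and Tsc22d3). The shares over all genes were 4.62% higher and 6.66% lower for KO against WT with LPS and 6.84% and 9.8% for LPS in KO, and Per1 and Tsc22d3 were below background on all arrays. Dusp1, a MAP kinase phosphatase, Zfp36, which destabilizes cytokine mRNA, and Lcn2, which binds bacterial siderophores, are also known as LPS-induced genes. Fkbp5, an HSP90 co-chaperone of the receptor, had 10.04 and 9.95 in KO clones #1 and #2 with LPS, against 12.43 in WT cells with LPS, while without LPS it had 11.64 and 11.51 in the clones, against 12.25 in untreated WT cells. The KO values lay below the WT values in both treatments, but the untreated difference of -0.67 did not pass the test. The difference with LPS was -2.44 (standard error 0.19, limma adjusted p = 0.00146) and the responses differed by -1.77 (adjusted p = 0.0317, and 0.118 and 0.102 without untreated clone #1 or #2). With LPS, KO exceeded WT by 3.11 in Zfp36 (adjusted p = 0.0013), by 2.82 in Dusp1 (adjusted p = 0.00216) and by 3.38 in Lcn2 (adjusted p = 0.000938). Untreated, 0 of the 15 were higher and 2 lower in KO (Mt2 and Lcn2), against 2.16% and 2.14% of all genes, and the Lcn2 difference was -4.33 (adjusted p = 0.0012) with both groups below background. Of 9 steroid receptor chaperones, all above background, Fkbp4 was lower in KO cells with LPS (-1.43, standard error 0.22, adjusted p = 0.0131). Dnajb1, Hspa4 and Hsp90aa1 differed by 0.59, -0.52 and -0.47 and did not pass.

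Of 14 LXR targets measured, 8 were above background, and with LPS 3 were higher in KO and 0 lower, against 4.62% and 6.66% of all genes, while LPS in KO raised 1 (Abca1) and lowered 3 (Mylip, Pltp and Smpdl3a), against 6.84% and 9.8%. Abca1, a cholesterol exporter, had 11.41 and 11.69 in KO clones #1 and #2 with LPS, 8.11 in WT cells with LPS, 8.51 and 8.03 in the untreated clones and 7.62 in untreated WT cells. It was above background only in KO cells with LPS, at least 5.41-fold over WT (3.44, standard error 0.27, limma adjusted p = 0.00149). Smpdl3a, a nucleotide phosphodiesterase, had 11.36 and 11.72 in the KO clones with LPS, against 8.70 in WT cells with LPS, while without LPS it had 12.77 and 12.97 in the clones, against 9.14 in untreated WT cells. KO exceeded WT at least 5.38-fold with LPS (adjusted p = 0.00176) and at least 12.7-fold untreated (adjusted p = 0.00206). Lpcat3, which remodels phospholipids, was higher in KO with LPS by 0.79 (adjusted p = 0.0496, 0.0577 with the clone as a block and from 0.0989 to 0.108 with 1 KO array left out), and Pltp, a lipid transfer protein, differed by -0.88 (adjusted p = 0.0628). LPS in KO changed Smpdl3a by -1.33 (adjusted p = 0.00741, 0.0597 without untreated clone #2) and Pltp by -0.90 (adjusted p = 0.0239, from 0.0803 to 0.120 without untreated clone #1, untreated clone #2 or clone #1 with LPS). The median over the 14 for KO against WT with LPS was 0.15, against -0.00 over all genes.

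Of 15 PPAR targets, 12 were above background, and LPS in KO raised 1 (Fabp5, below background in both groups) and lowered 5, against 6.84% and 9.8% of all genes. Cpt1a, which carries fatty acids into mitochondria, had 7.63 and 8.04 in KO clones #1 and #2 with LPS, 9.21 in WT cells with LPS, 10.45 and 11.04 in the untreated clones and 9.19 in untreated WT cells. LPS lowered it in KO cells by -2.91 on the log2 scale (standard error 0.26, limma adjusted p = 0.00144), at least 2.48-fold, and the responses differed by -2.92 (adjusted p = 0.0323, and 0.0586 and 0.0794 without untreated clone #1 or #2), or by -1.31 with the groups below background set at the limit. Plin2, a lipid droplet protein, was higher in untreated KO cells by 1.78 (adjusted p = 0.0347, and 0.103 and 0.162 without untreated clone #1 or #2). Fabp5, a fatty acid carrier, was lower in KO cells with LPS (-1.84, adjusted p = 0.0120, at least 1.01-fold). Untreated, its signals differed by -2.57 (adjusted p = 0.00996) with both groups below background, a call lost when either untreated clone was left out. Acadm, of fatty acid oxidation, differed by -1.09 with LPS (adjusted p = 0.147).

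**Figure D4:**
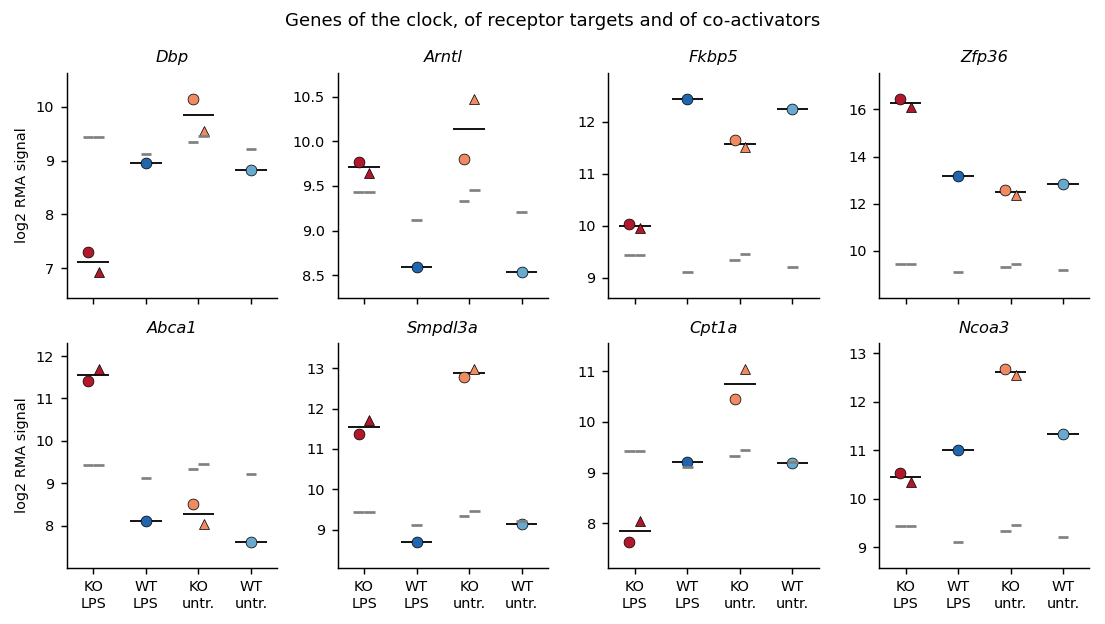
Log2 RMA signal of 8 genes of the clock, of receptor targets and of co-activators, with KO left of WT in each treatment (circles, clone #1 or WT; triangles, clone #2; black lines, group means; grey ticks, the negative control limit of each array; the vertical axes differ and do not start at 0). Dbp and Cpt1a are lowest in KO cells with LPS, and Abca1 is above its limit only there.

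Co-regulators, the proteins through which the receptors repress or activate, were largely detected, with 14 of 17 measured above background. LPS in KO lowered 5 of them (Ncoa1, Ncoa2, Ncoa3, Tbl1x and Tbl1xr1) and raised 0, against 9.8% and 6.84% of all genes, and their median difference was -0.40, against -0.03 over all genes. Ncoa3, a steroid receptor co-activator, had 10.54 and 10.35 in KO clones #1 and #2 with LPS, 11.01 in WT cells with LPS, 12.67 and 12.56 in the untreated clones and 11.33 in untreated WT cells. It was highest in untreated KO cells and lowest in KO cells with LPS. LPS lowered it in KO by -2.17 (standard error 0.16, limma adjusted p = 0.00082), and KO exceeded WT untreated by 1.29 (adjusted p = 0.0292, 0.128 without either untreated clone). Ncoa2 fell in KO with LPS by 1.07 (adjusted p = 0.0283, 0.141 without untreated clone #2 and 0.0911 without clone #1 with LPS). Tbl1xr1 and Tbl1x, subunits of the NCoR complex, fell in KO with LPS by 0.79 (adjusted p = 0.0251, from 0.0949 to 0.132 without untreated clone #1, untreated clone #2 or clone #1 with LPS) and by 0.92 (adjusted p = 0.0113, 0.0761 and 0.0714 without untreated clone #1 or #2).

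Of 24 enzymes that make or break down receptor ligands, 4 were above background. Dhrs9, a retinol dehydrogenase, had 10.39 and 10.12 in KO clones #1 and #2 with LPS, against 6.91 in WT cells with LPS, while without LPS it had 10.56 and 10.71 in the clones, against 7.72 in untreated WT cells. It was above background on every KO array and on neither WT array. KO exceeded WT at least 2.20-fold with LPS (limma adjusted p = 0.00109) and at least 2.68-fold untreated (adjusted p = 0.00321). Among the enzymes below background on all arrays were Dhrs3 and Cyp27a1. The LPS difference of the Dhrs3 signals was 1.29 in WT cells, which did not pass, and 1.15 in KO cells. LPS in KO raised 2 of the enzymes (Rdh11 and Dhrs3) and lowered 2 (Cyp27a1 and Hsd17b4), against 6.84% and 9.8% of all genes. For Rdh11, which is also a retinol dehydrogenase, this difference was 0.85 (adjusted p = 0.0219, at least 1.08-fold, from 0.0780 to 0.134 without untreated clone #1, untreated clone #2 or clone #1 with LPS), and KO against WT with LPS gave 0.46 (adjusted p = 0.244). Hsd17b4, of peroxisomal fatty acid oxidation, was higher in untreated KO than in untreated WT cells by 1.07 (adjusted p = 0.0499, 0.171 and 0.144 without untreated clone #1 or #2). In KO it fell with LPS, with a difference of -0.94 (adjusted p = 0.0153, from 0.0515 to 0.0979 without untreated clone #1, untreated clone #2 or clone #1 with LPS). With LPS, KO and WT differed by 0.19 in Hsd17b4 (adjusted p = 0.647) and by 0.01 in Hsd17b12, of fatty acid elongation (adjusted p = 0.984). None of the 8 measured targets of retinoic acid and vitamin D was above background, and of them Tgm2 passed with LPS, its signals below background in both groups.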

How the data were processed

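The deposited values are log2 signals of mouse Clariom S arrays, hybridized and analysed for the authors by service companies, and were made with RMA in Expression Console, which corrects background, quantile-normalizes and summarizes the probes. No version was given in the sources used here. A gene-level summary is named for the WT array without LPS and an exon-level summary for the other 5, and whether this shifts levels was not tested.

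Of 28846 values per array, 22206 belonged to genes and 5222 to negative control probes. A symbol was given for 19572 probe sets and none for 2634. The probe set with the highest mean was kept, and all 40 receptors matched RefSeq by Entrez ID. The members and lists were chosen with earlier results of these data known. Members above background or past a test were named with values, and from each list up to 4 genes above background with the smallest adjusted p for KO against WT with LPS, plus Lpin2. Other names come from counts. Genes over 2-fold, the rule of the methods, were counted without a test.

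limma 3.58.1 in R 4.3.3 fitted 1 mean per group (2 residual and 3.83 prior degrees of freedom) with Benjamini-Hochberg adjustment over 19505 genes. The p-values measure the spread between these 2 clones only. Both treatments of a KO number come from the same clone (correlation of deviations 0.222), so the numbers pair the samples. The steps were tested on simulated data. Alternatives were the clone block, each KO array left out, other normalization, moderation, filters and summaries, and the methods' t-test.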

Additional observations from a re-analysis of the deposited data

Results flagged for a closer look

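The LPS response of Nr1d1 differed between the genotypes. The log2 difference between LPS and untreated was 4.67 in KO cells and 0.67 in WT cells, and the difference between these responses was 4.00 (95% interval 3.24 to 4.76, limma adjusted p = 0.00745). Both clones showed the larger response. The untreated KO signals lay below background, and with them at the limit the difference was 2.79. The library labelled untreated WT had high signals of LPS-inducible genes such as Tnf (14.07 and 14.05 in untreated KO clones #1 and #2, against 16.18 in it). Whether that culture was free of stimulation is not settled by the labels, so the WT response compares the 2 libraries as labelled.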

How the results depend on the processing

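Nr1d1 kept its calls for KO against WT untreated, LPS in KO and the response difference under all limma alternatives run (response difference from 3.86 to 4.14). With 1 KO array left out, the receptors that passed numbered 1 to 3 for KO against WT with LPS (3 with all arrays), 1 to 3 untreated (3) and 3 to 6 for LPS in KO (8). With only genes above background on at least 1 array fitted, 6, 1 and 5 passed. That filter is not blind to the groups, since Nr3c1 enters it only through the KO arrays with LPS. With only the arrays of the comparison, 1 passed for KO against WT with LPS. The methods' t-test gave 0 in each after adjustment, and at an unadjusted p under 0.05 it gave 5, 3 and 11. Limma at an unadjusted p under 0.05 gave 9, 9 and 11 receptors, against 4748, 3904 and 5453 of 19505 genes. Shares over all genes were not counted for the alternatives, so their counts of receptors cannot be set against such shares. Over 2-fold without a test were 5 receptors for LPS in KO and 4 for the response difference, where 1 passed. Above background, 9 receptors became 1 at the 99th percentile, 10 at the 90th and 4 when all 6 arrays were required. Nr4a2 for KO against WT with LPS turned to -0.11 without KO clone #2 with LPS and was 0.62 without clone #1 (0.26 with all arrays). The causes were not tested.

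In the paired fit, where the clone was a block and 1 residual degree of freedom was left, 4, 3 and 8 receptors passed for KO against WT with LPS, untreated and LPS in KO. Of 69 single-gene results the block changed 2 calls, those of Rarg and Lpcat3. Robust moderation and the mean of the probe sets changed none of the 69. No receptor passed for LPS in WT under any limma alternative run. The t-test and a fit on its own arrays could not be made for LPS in WT or for the response difference. WT has 1 array per treatment, so no alternative measures the spread between WT cultures, and for 31 receptors the signal never exceeded the limit.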
